A study of Mus musculus with 6 samples.

Results

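The genes described here are 10 protein tyrosine phosphatases that act in T cells, measured in CD4 T cells of Dicer KO and Dicer WT mice. They are the receptor-type phosphatases Ptprc and Ptprj and the cytosolic phosphatases Ptpn1, Ptpn2, Ptpn4, Ptpn6, Ptpn7, Ptpn11, Ptpn18 and Ptpn22. They were chosen by symbol: a gene was taken where the array's annotation gave a row that symbol and no other. All 10 were found, on 12 of 28815 array rows, and they are 10 of 19935 genes that could be named in this way. Ptpn2 and Ptprj lay on 2 rows each, which were averaged, and the other 8 genes on 1 row each.

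Protein tyrosine phosphatases remove phosphate from tyrosine residues and so oppose, or in some cases switch on, the kinases that carry signals from surface receptors. In T cells they set the threshold of the T cell receptor: CD45, the product of Ptprc, removes the inhibitory phosphate of the kinase Lck, whereas the phosphatase encoded by Ptpn22 removes its activating phosphate. Others act on cytokine signals by dephosphorylating Janus kinases and STAT proteins, or on MAP kinases. MicroRNAs of the miR-181 family, which Dicer matures, are known to repress several phosphatase transcripts in mouse T cells, Ptpn22 and Ptpn11 among them.

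The 6 samples were lymph node cells sorted by flow cytometry as CD4+CD62L- and described as resting, and none was treated. Their total RNA was amplified and hybridised to Affymetrix MoGene 1.0 ST arrays, with 1 array per sample. The Dicer KO group (n = 3) came from animals that were CD4Cre pos and Dicer lox/lox, and the Dicer WT group (n = 3) from animals that were CD4Cre neg and Dicer lox/lox. Both groups thus carry the floxed Dicer alleles, and the effects of Cre itself and of Dicer loss cannot be told apart. Cre is driven by the Cd4 promoter, which is active from the thymus onward, so the deletion precedes the sort. The series' design text calls the 3 samples of a genotype biological replicates. The sources used here give no age, sex or strain, and do not say whether animals were pooled.

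Each value below is an array's deposited value on the log2 scale, in which each row had been centred on its own median. It says how far an array lies above or below the others for the same gene and gives no expression level, so no gene's level is set against another's. Differences are Dicer KO minus Dicer WT and were tested in limma over all 19935 genes, with Benjamini-Hochberg adjusted p-values and a threshold of 0.05. Of these genes, 8.73% passed (5.94% higher and 2.79% lower in Dicer KO), and for 26.2% every Dicer KO array lay on one side of every Dicer WT array, here called no overlap. The binary step of the stored numbers gave a coarse level class: 16.4% of rows lay in a higher class, which held 94.6% of 204 rows of ribosomal protein genes and 1.45% of 1035 rows of olfactory receptor genes. Among the 2992 genes of the higher class 26.1% passed (21.7% higher and 4.41% lower in Dicer KO), against 5.67% of the 16943 genes of the lower class. The median difference was 0.12 in the higher class, against -0.019 in the lower class. The phosphatase genes are read against both backgrounds.

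The row of Dicer1 read 0.21, -0.020 and -0.087 on the Dicer KO arrays, against 0.12, 0.020 and -0.095 on the Dicer WT arrays. Its difference was 0.019 ± 0.093 (SE, n = 3 per genotype, limma adjusted p = 0.949), and its sign changed with several settings. No source used here says which exons its probes cover, so the row is no check of the deletion and the labels alone give the genotypes. The sort was checked through the level class. All 10 T cell markers fell in the higher class, including Cd4 and the CD3 chains, against 0 of 13 B cell markers, 1 of 15 myeloid markers (Cst3) and 0 of 6 NK cell markers, and the row of Cd8b1 was also in the higher class.

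The miR-181 microRNAs are shown because Dicer produces them and because Ptpn22 and Ptpn11 are among the transcripts they are known to repress. The mature sequences are from RefSeq (GRCm38.p6), written 5′ to 3′, and the capitals mark the seed, bases 2 to 8, which is the same in all 4.
miR-181a-5p: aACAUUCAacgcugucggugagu
miR-181b-5p: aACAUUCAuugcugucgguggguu
miR-181c-5p: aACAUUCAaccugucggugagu
miR-181d-5p: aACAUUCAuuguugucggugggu
miR-181a-5p lies at chr1:137966468-137966490 and chr2:38852741-38852763 and miR-181b-5p at chr1:137966650-137966673 and chr2:38853845-38853868, all on the plus strand. miR-181c-5p lies at chr8:84178924-84178945 and miR-181d-5p at chr8:84178759-84178781, both on the minus strand. The array measures their precursor genes and not the mature microRNAs. None of the 6 precursor genes passed the threshold (limma adjusted p 0.252 to 0.880). Their differences ran from -0.091 ± 0.071 (SE) for Mir181a-2 to 0.12 ± 0.054 for Mir181b-2.

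Of the 10 phosphatase genes, 2 rose in Dicer KO cells and 0 fell. These were Ptprj, 1.36-fold higher, and Ptpn1, 1.26-fold higher. The differences of the other 8 did not pass and ran from -0.15 for Ptpn18 to 0.40 for Ptpn22. The median of the 10 differences was 0.25, against -0.011 over all genes. Of the 10, 8 were positive, against 9016 of 19935 over all genes. The higher level class, which held 4 of the 10, had a median of 0.12 and 2084 of 2992 positive differences. The lower class had a median of -0.019 and 6932 of 16943 positive differences. At an unadjusted p below 0.05 the count was 4, against 21.5% of all genes. There was no overlap between genotypes for 6 of the 10 genes: Ptprj, Ptpn22, Ptpn1, Ptpn7 and Ptpn2, all higher in Dicer KO, and Ptpn18, lower in Dicer KO. The share without overlap over all genes was 26.2%, and in the higher level class, which holds Ptpn22 and Ptpn1, 48.7%. In the lower class, which holds Ptprj, Ptpn7, Ptpn2 and Ptpn18, 3761 of 16943 genes had no overlap. The count of calls changed when 1 array was left out, which also leaves fewer arrays to test. It was 0 when Dicer KO 2, Dicer KO 3 or Dicer WT 1 was left out. It was 1 when Dicer KO 1 (Ptpn1) or Dicer WT 3 (Ptpn6) was left out. It was 2 (Ptprj and Ptpn22) when Dicer WT 2 was left out. No fit that left out 1 array kept both Ptprj and Ptpn1. The higher class's own share of calls, 21.7% higher in Dicer KO, is the nearer background for Ptpn1, and the lower class's 5.67% in either direction for Ptprj.

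**Figure D1:**
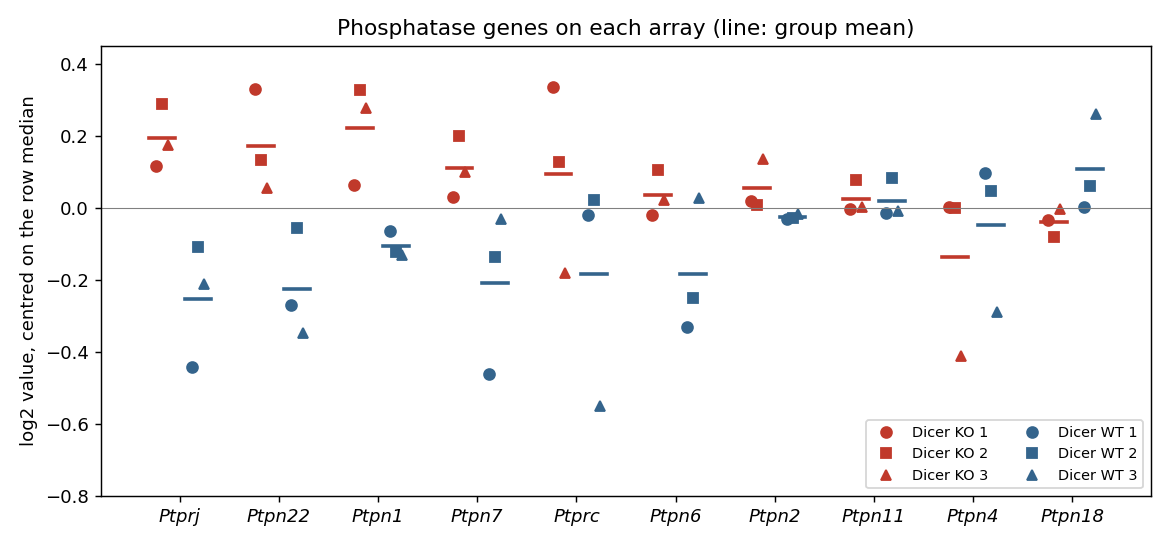
Deposited log2 values, centred on the row median (y axis), of the 10 phosphatase genes (x axis, ordered by the genotype difference) on the 3 Dicer KO arrays (red) and the 3 Dicer WT arrays (blue); marker shapes give the replicate number and lines the group mean. The groups do not overlap for Ptprj, Ptpn22, Ptpn1, Ptpn7, Ptpn2 and Ptpn18, and replicate 3 of both genotypes is low for Ptprc and Ptpn4.

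Among the receptor-type phosphatases, Ptprj encodes CD148, which acts on Src family kinases in blood cells. Its values were 0.12, 0.29 and 0.17 on the Dicer KO arrays, against -0.44, -0.11 and -0.21 on the Dicer WT arrays. Every Dicer KO array lay above every Dicer WT array, and Dicer WT 1 was the lowest. The difference was 0.45 ± 0.093 (SE, 95% interval 0.23 to 0.67, limma adjusted p = 0.0298). Both of its rows were higher in Dicer KO, by 0.51 ± 0.11 and 0.39 ± 0.085. The adjusted p stayed below the threshold without Dicer WT 2 (0.0348) and lay above it without each of the other 5 arrays, namely 0.0508 without Dicer WT 3, 0.0515 without Dicer KO 1, 0.0639 without Dicer WT 1, 0.0673 without Dicer KO 3, and 0.118 when Dicer KO 2 was left out.

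Ptprc, which encodes CD45, the most abundant phosphatase of the leukocyte surface, read 0.34, 0.13 and -0.18 on the Dicer KO arrays, against -0.021, 0.021 and -0.55 on the Dicer WT arrays. The groups overlapped, and the third array was the lowest of each genotype. The difference of 0.28 ± 0.18 (SE, 95% interval -0.15 to 0.71) did not pass (limma adjusted p = 0.469), and the interval holds both no change and a change larger than that of Ptprj. The row does not separate the CD45 isoforms that distinguish naive from memory T cells.

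The PEST-type phosphatases are named for a proline-rich stretch behind the catalytic domain. Ptpn22, whose product works with the kinase Csk on Lck and Zap70, read 0.33, 0.13 and 0.056 on the Dicer KO arrays, against -0.27, -0.056 and -0.35 on the Dicer WT arrays. The groups did not overlap, although Dicer KO 3 and Dicer WT 2 lay close together. The difference was 0.40 ± 0.099 (SE, 95% interval 0.16 to 0.63), 1.32-fold, with a limma adjusted p of 0.0544 that lies just above the threshold. Without Dicer WT 2 it passed (adjusted p = 0.0440). It did not pass without Dicer KO 1 (0.125), Dicer KO 2 (0.143), Dicer KO 3 (0.0597), Dicer WT 1 (0.162) or Dicer WT 3 (0.116). Ptpn22 also passed when the test was limited to the higher level class (0.0233), with array weights (0.0359) and after quantile normalization (0.0411). With the arrays centred within level classes the difference was 0.34 (0.0805).

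Ptpn18, another PEST-type phosphatase, had the most negative difference of the 10. It read -0.034, -0.082 and -0.0024 on the Dicer KO arrays, against 0.0024, 0.061 and 0.26 on the Dicer WT arrays. The groups did not overlap, but Dicer KO 3 and Dicer WT 1 were nearly equal and Dicer WT 3 stood above the rest. The difference of -0.15 ± 0.075 (SE, 95% interval -0.32 to 0.029) did not pass (limma adjusted p = 0.328).

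Ptpn1 and Ptpn2 encode closely related phosphatases, PTP1B and TC-PTP, which act on Janus kinases. Ptpn1 read 0.064, 0.33 and 0.28 on the Dicer KO arrays, against -0.064, -0.12 and -0.13 on the Dicer WT arrays. The Dicer WT arrays lay close together and Dicer KO 1 was the lowest of the Dicer KO arrays. The difference was 0.33 ± 0.076 (SE, 95% interval 0.15 to 0.51, limma adjusted p = 0.0420). Without Dicer KO 1 it was 0.41 with an adjusted p of 0.0145. Without any other single array the call was lost, with adjusted p-values of 0.143 when Dicer KO 2 was left out, 0.107 for Dicer KO 3, 0.102 for Dicer WT 1, 0.123 for Dicer WT 2 and 0.0905 for Dicer WT 3. It was also lost with the arrays centred within level classes, at a difference of 0.27 (0.0876).

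Ptpn2 read 0.019, 0.0087 and 0.14 on the Dicer KO arrays, against -0.030, -0.029 and -0.018 on the Dicer WT arrays. The groups did not overlap, yet 5 of the 6 arrays lay within a narrow band and Dicer KO 3 stood above it. The difference of 0.080 ± 0.053 (SE, 95% interval -0.045 to 0.21) did not pass (limma adjusted p = 0.472). The genotypes overlapped on each of its rows taken alone, so the lack of overlap, counted above, appears only in their average. The rows moved against each other within genotypes: the one row read lowest on Dicer WT 3 (-0.27), where the other row read 0.23.

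Ptpn6 and Ptpn11 encode SHP-1 and SHP-2, which bind phosphorylated tyrosine motifs through SH2 domains. SHP-1 is recruited by inhibitory receptors, and SHP-2 also promotes Ras signalling. Ptpn6 read -0.021, 0.11 and 0.021 on the Dicer KO arrays, against -0.33, -0.25 and 0.027 on the Dicer WT arrays. Dicer WT 3 lay among the Dicer KO arrays and the other Dicer WT arrays lay below them. The difference was 0.22 ± 0.096 (SE, 95% interval -0.0057 to 0.45, limma adjusted p = 0.246), and it was 0.33 with an adjusted p of 0.0312 without Dicer WT 3.

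Ptpn11 read -0.0030, 0.078 and 0.0030 on the Dicer KO arrays, against -0.016, 0.082 and -0.010 on the Dicer WT arrays. The second array was the highest of each genotype and the groups overlapped. The difference was 0.0071 ± 0.053 (SE, limma adjusted p = 0.968), with a 95% interval of -0.12 to 0.13 that leaves out the size measured for Ptpn22. Of the pair of genes known as miR-181 targets, neither passed the threshold.

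Ptpn7 encodes HePTP, a phosphatase of blood cells that acts on MAP kinases. Its values were 0.030, 0.20 and 0.10 on the Dicer KO arrays, against -0.46, -0.14 and -0.030 on the Dicer WT arrays. The groups did not overlap and Dicer WT 1 was far below the others. The difference of 0.32 ± 0.11 (SE, 95% interval 0.055 to 0.59), 1.25-fold, did not pass (limma adjusted p = 0.147) and was 0.19 without Dicer WT 1. It passed only with array weights, at 0.41 (0.0492).

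Ptpn4, a phosphatase with FERM and PDZ domains, read 0.0013, -0.0013 and -0.41 on the Dicer KO arrays, against 0.097, 0.047 and -0.29 on the Dicer WT arrays. The third array of each genotype was low and the others lay near the row median. The difference of -0.089 ± 0.14 (SE, limma adjusted p = 0.812) was small beside the spread within genotypes, and without Dicer KO 3 it was 0.048.

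**Figure D2:**
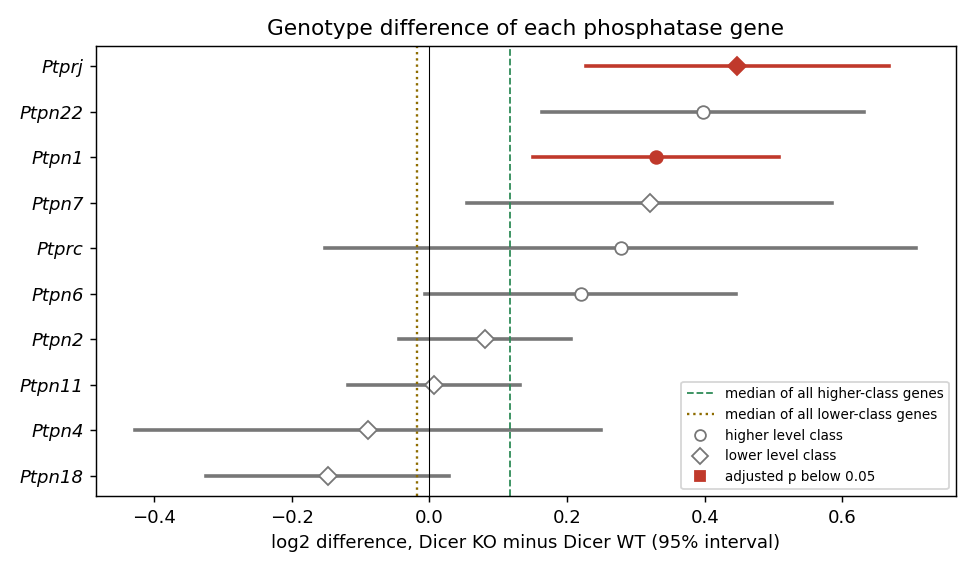
Difference between Dicer KO and Dicer WT on the log2 scale (x axis; positive is higher in Dicer KO) of each phosphatase gene (y axis), with its 95% interval from limma on 3 arrays per genotype. Red symbols passed the threshold (Ptprj and Ptpn1), circles are genes of the higher level class, diamonds genes of the lower class, and the vertical lines give the median difference of all genes in each class (0.12 and -0.019).

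The genes of the higher level class were Ptpn22, Ptpn1, Ptprc and Ptpn6. Their differences, 0.22 to 0.40, all lay above the class median of 0.12. The lower class held Ptprj and Ptpn7, at 0.45 and 0.32, and Ptpn2, Ptpn11, Ptpn4 and Ptpn18, at -0.15 to 0.080. For Ptpn2 the rows fell in different classes, which put the gene in the lower one. In rank among the 19935 differences, Ptprj stood at percentile 96.3, Ptpn22 at 95.2, Ptpn1 at 93.2, Ptpn7 at 92.9, Ptprc at 91.5 and Ptpn6 at 88.8. Ptpn4 stood at percentile 22.3 and Ptpn18 at 12.4.

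**Figure D3:**
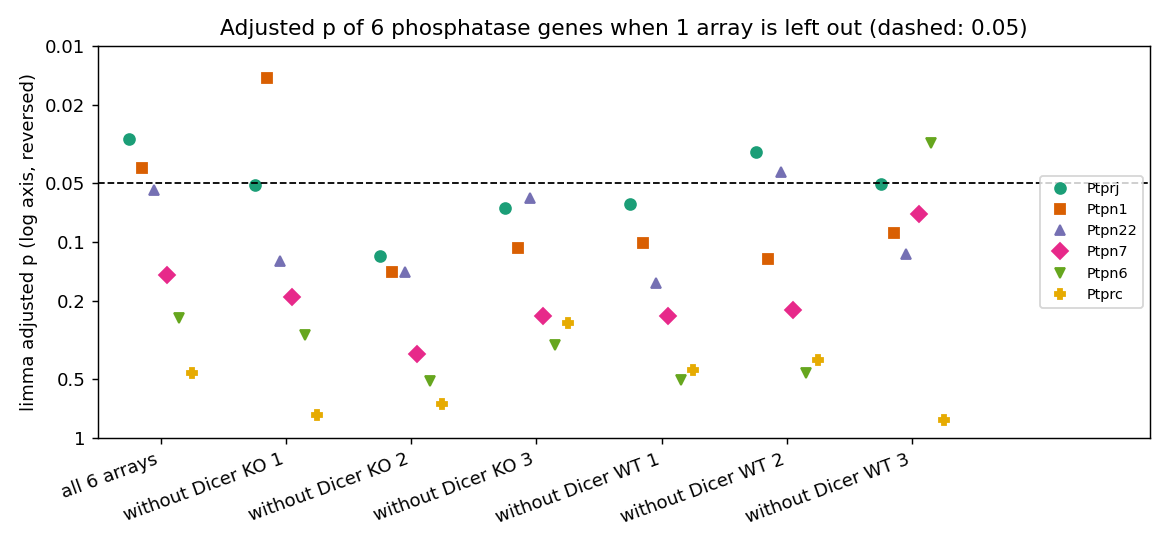
Limma adjusted p (y axis, log scale with small values at the top) of the 6 phosphatase genes with the highest differences, with all 6 arrays and with each array left out in turn (x axis); the dashed line is the threshold of 0.05. Ptprj and Ptpn1 lie above the line with all arrays, and without Dicer KO 2, Dicer KO 3 or Dicer WT 1 no gene does.

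The genes whose centred values lay nearest to a phosphatase gene over the 6 arrays were found for the pair with the lowest p. For Ptprj they were Qrich1, H2bc21 and Rab19, at root mean square distances of 0.041, 0.054 and 0.055 on the log2 scale, and for Ptpn1 they were Abtb2, Sec14l1 and Ube2z, at 0.034, 0.037 and 0.039.

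The remaining classical phosphatases were listed whole to set the 10 genes in their family. Of 28 listed, 27 were measured, and 1 rose and 0 fell. The median difference was -0.0094, against 0.25 for the 10 phosphatases above. Of the 27, 26 fell in the lower level class, Ptpn12 among them. In that class 5.67% of genes passed in either direction, and 536 of 16943 were called higher, so 1 call is near the background. Only Ptpra, a receptor-type activator of Src family kinases, was in the higher class, and it read 0.073, 0.018 and -0.069 on the Dicer KO arrays, against 0.086, -0.018 and -0.018 on the Dicer WT arrays. The riser was Ptpn12, which encodes PTP-PEST, a relative of the product of Ptpn22. Its values were 0.062, 0.32 and 0.28 on the Dicer KO arrays, against -0.31, -0.062 and -0.35 on the Dicer WT arrays. The groups did not overlap, and Ptpn12 was 1.38-fold higher in Dicer KO (0.46 ± 0.10 SE, limma adjusted p = 0.0340). Leaving out Dicer KO 2 (0.130), Dicer KO 3 (0.0907), Dicer WT 1 (0.118) or Dicer WT 3 (0.0754) ended its call.

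Of 13 measured genes of other tyrosine phosphatase classes, 2 rose and 0 fell. The higher level class, with its 21.7% of genes called higher, held 4 of the 13, Ubash3a among them but not Eya2. Ubash3a encodes a T cell protein of the histidine phosphatase fold that restrains T cell receptor signals. It read 0.21, 0.22 and 0.28 on the Dicer KO arrays, against -0.37, -0.33 and -0.21 on the Dicer WT arrays. The groups lay well apart, and the difference of 0.54 ± 0.059 (SE, limma adjusted p = 0.00321) passed without each array in turn. Eya2, a member of the eyes absent family, rose by 0.44 ± 0.099 (0.0392), a call that ended on leaving out Dicer KO 1 (0.108), Dicer KO 2 (0.138), Dicer WT 1 (0.125) or Dicer WT 2 (0.125). Ubash3b, the relative of Ubash3a with the stronger phosphatase activity, had a difference of 0.38 ± 0.11 that did not pass (0.0746).

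Genes for proteins that bind or work with these phosphatases moved in both directions. Of 19 measured partners and adaptors, 1 rose, 3 fell and 15 did not pass. The higher level class, with 21.7% of genes called higher and 4.41% lower, held 14 of the 19. Ptprcap, whose product associates with CD45, read 0.17, 0.24 and 0.26 on the Dicer KO arrays, against -0.19, -0.17 and -0.17 on the Dicer WT arrays. The arrays of each genotype lay close together, and Ptprcap was 1.32-fold higher in Dicer KO (0.40 ± 0.048 SE, limma adjusted p = 0.00407), also without each array in turn. The adaptors Lax1 (-0.36 ± 0.071, 0.0250), Sh2d2a (-0.34 ± 0.062, 0.0183) and Skap1 (-0.34 ± 0.082, 0.0459) fell. Lax1 kept its call only without Dicer KO 1 (0.0485) or Dicer WT 1 (0.0296), Sh2d2a only without Dicer KO 3 (0.0438) or Dicer WT 3 (0.00991), and Skap1 only without Dicer KO 1 (0.0324) or Dicer WT 3 (0.0371). Leaving out any other array gave adjusted p-values of up to 0.105 for Lax1, 0.0775 for Sh2d2a and 0.156 for Skap1, which was also lost after quantile normalization (0.0553). Csk, the kinase that the product of Ptpn22 binds, had a difference of 0.12 ± 0.087 (0.502), and the difference of Pstpip1, the adaptor bound by the PEST-type phosphatases, was 0.18 ± 0.048 (0.0622).

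Among 16 measured inhibitory receptors with tyrosine motifs in their tails, which include docking sites of SHP-1 and SHP-2, 1 rose and 1 fell. The higher level class, with 21.7% of genes called higher and 4.41% lower, held 4 of the 16, Pecam1 and Cd5 among them. Pecam1 was 1.69-fold higher in Dicer KO (0.75 ± 0.067 SE, limma adjusted p = 0.00158). Its values were 0.50, 0.38 and 0.30 on the Dicer KO arrays, against -0.35, -0.30 and -0.42 on the Dicer WT arrays, so the genotypes were far apart. Cd5, which is also among the T cell markers, fell (-0.44 ± 0.062, 0.00704). Both passed without each array in turn. The inhibitory receptor PD-1, encoded by Pdcd1, had a difference of -0.0019 ± 0.068 (0.993).

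The substrates and kinases on which the phosphatases act were taken as 3 lists. Of 16 measured genes near the T cell receptor, the adaptor Grap2 rose (0.69 ± 0.089 SE, limma adjusted p = 0.00529) and 0 fell, and 15 of the 16 differences were positive, with a median of 0.14. Of the 16, 14 were in the higher level class, where the median was 0.12, 2084 of 2992 differences were positive and 21.7% of genes were called higher. Of the substrates of the Ptpn22 product, Zap70 differed by 0.18 ± 0.062 (0.150) and Lck was not analysed here. The count of calls was 3 when the test was limited to the higher level class, 2 after quantile normalization and 4 with array weights, and it was 2 without Dicer KO 3.

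Of 9 measured Janus kinases and STAT factors, on which the products of Ptpn1 and Ptpn2 act, 4 rose, 0 fell and all 9 differences were positive, with a median of 0.32. Of the 9, 8 were in the higher level class, with its 21.7% of genes called higher. Stat3 read 0.28, 0.45 and 0.37 on the Dicer KO arrays, against -0.51, -0.36 and -0.28 on the Dicer WT arrays, a difference of 0.75 ± 0.075 (SE, limma adjusted p = 0.00243). The kinase Jak1 rose by 0.68 ± 0.085 (0.00474), Stat4 by 0.68 ± 0.12 (0.0158) and Stat5b by 0.33 ± 0.067 (0.0281). Stat3 and Jak1 passed without each array in turn, Stat4 did not without Dicer KO 2 (0.0736) or Dicer WT 1 (0.0629). Stat5b passed only without Dicer KO 3 (0.0226) and reached 0.0607 to 0.102 without each of the other 5 arrays, and it was also lost with the arrays centred within level classes (0.0550). The differences of Stat5a (0.19), Jak2 (0.29), Stat2 (0.32), Stat6 (0.13) and Tyk2 (0.11) did not pass.

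Of 11 measured genes of the MAP kinase and Ras pathway, 3 rose and 0 fell: the Ras activator Rasgrp1 (0.80 ± 0.10 SE, limma adjusted p = 0.00553), the kinase Map2k1 (0.35 ± 0.060, 0.0155) and Nras (0.25 ± 0.044, 0.0164). The higher level class, with its 21.7% of genes called higher, held 7 of the 11, Rasgrp1, Map2k1 and Nras among them. Rasgrp1 passed without each array in turn. Map2k1 did not without Dicer KO 2 (0.0683), Dicer WT 1 (0.0602) or Dicer WT 2 (0.0593), and Nras did not without Dicer KO 1 (0.0503), Dicer KO 2 (0.0668), Dicer WT 1 (0.0625) or Dicer WT 2 (0.0592). Mapk14, which encodes the p38 kinase that the product of Ptpn7 dephosphorylates, had a difference of -0.030 ± 0.071 (0.883).

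**Figure D4:**
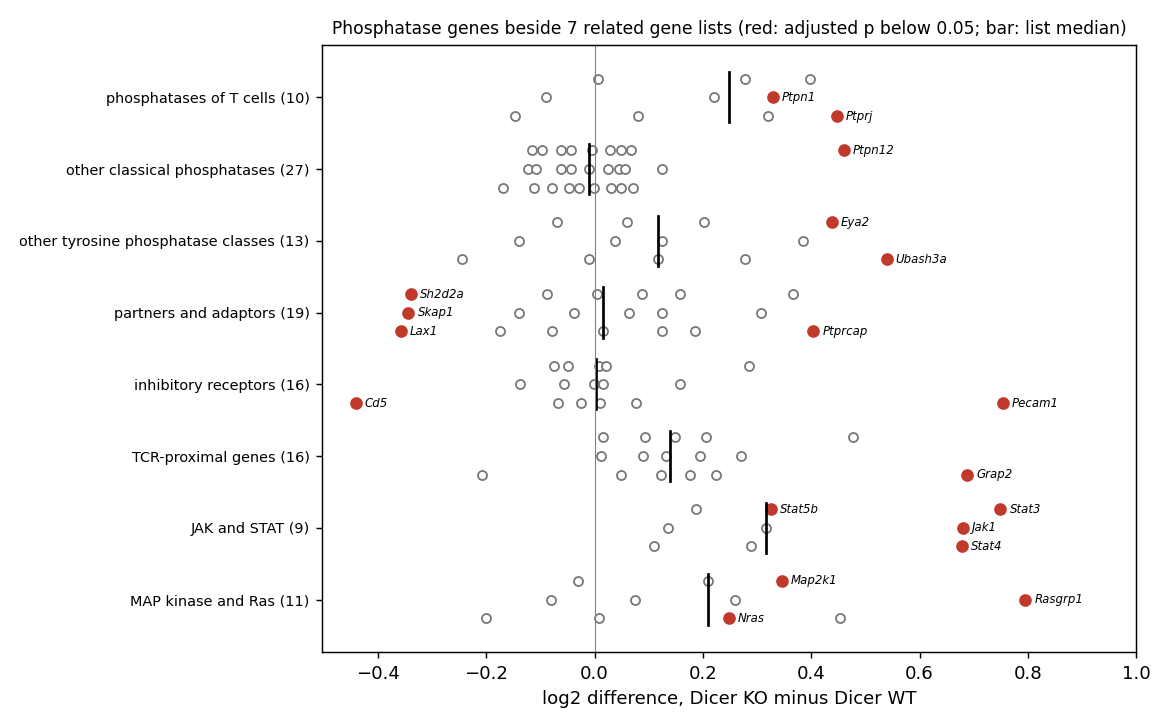
Difference between Dicer KO and Dicer WT on the log2 scale (x axis) of each measured gene in the list of 10 phosphatases and in 7 related lists (y axis, number of genes in brackets); red filled points passed the limma threshold and are named, and black bars are list medians. The 10 phosphatases have a median of 0.25 and the other 27 classical phosphatases one of -0.0094; height within a list only spreads the points.

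Markers of other cells and interferon-stimulated genes were read on the same arrays. Of 13 measured B cell markers, all 13 had a positive difference, and all 13 lay below their row median on Dicer WT 1 and on Dicer WT 3. Their medians were 0.16, 0.038 and 0.12 on the Dicer KO arrays, against -0.45, 0.016 and -0.22 on the Dicer WT arrays. The T cell markers were also lower on Dicer WT 1 and Dicer WT 3 than on Dicer WT 2. The medians of these 10 genes were 0.11, 0.13 and 0.024 on the Dicer KO arrays, against -0.072, -0.0016 and -0.12 on the Dicer WT arrays. Among the phosphatase genes, Ptprj, Ptpn6 and Ptpn7 read lowest on Dicer WT 1, and Ptpn1, Ptpn22 and Ptprc on Dicer WT 3. Several of these phosphatase genes, Ptprc and Ptpn6 among them, are also expressed in B cells. In sorted bulk samples fewer cells of a type and less RNA per cell cannot be told apart. Without Dicer WT 1 and Dicer WT 3 the differences were 0.30 for Ptprj and 0.35 for Ptpn1, and neither passed (limma adjusted p 0.243 and 0.292) in that fit, where Dicer WT 2 is the lone Dicer WT array and is assumed to vary like the Dicer KO arrays. No B cell marker was in the higher level class, and the part of B cells in the differences was not tested. Bank1 was the only B cell marker that rose (0.71 ± 0.11 SE, 0.00975).

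The 15 measured myeloid markers had medians of 0.0039, -0.0045 and 0.033 on the Dicer KO arrays, against -0.037, 0.016 and -0.020 on the Dicer WT arrays. Of these, Mpeg1 and Lyz2 rose (0.96 ± 0.10 SE and 0.69 ± 0.12, limma adjusted p 0.00319 and 0.0165) while the differences of the macrophage genes Csf1r and Adgre1 were 0.053 and -0.021 and did not pass. Of 10 T cell markers, 3 rose and 1 fell, with a median difference of 0.16. All 10 were in the higher level class, where the median was 0.12. In that class 21.7% of genes were called higher and 4.41% lower. Of 6 NK cell markers 0 passed in limma, and 1 had an unadjusted p below 0.05: Klrd1, at 1.27, 0.93 and -0.012 on the Dicer KO arrays, against -0.19, -0.23 and 0.012 on the Dicer WT arrays (difference 0.87 ± 0.30 SE, adjusted p 0.136). The part of these cells in the phosphatase differences was not tested.

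Of 21 measured interferon-stimulated genes, 14 rose, 0 fell and the median difference was 1.09, above that of every other list here. Their medians were 0.66, 0.44 and 0.27 on the Dicer KO arrays, against -0.59, -0.97 and -0.28 on the Dicer WT arrays. Their part in the phosphatase differences was not tested.

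**Figure D5:**
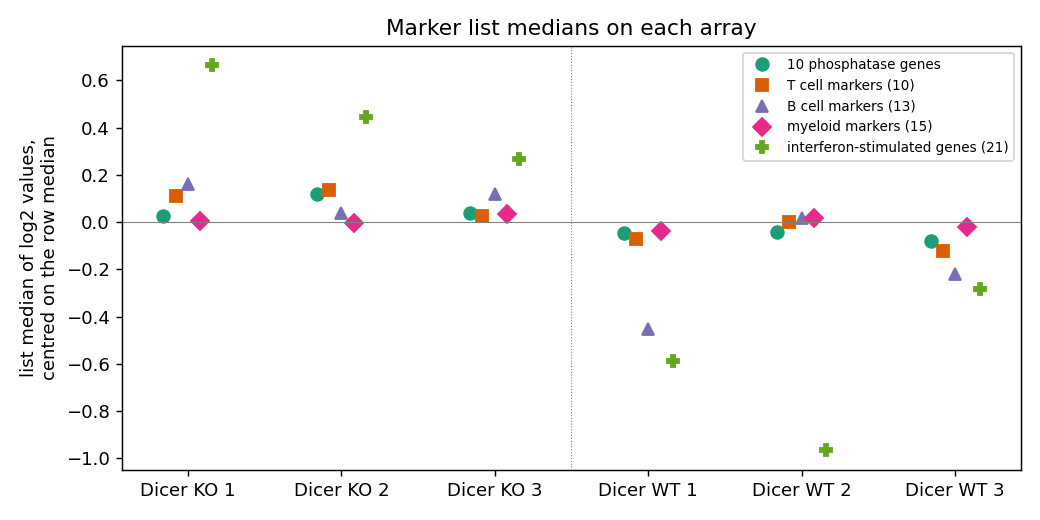
Median of the centred log2 values (y axis) of 5 gene lists on each array (x axis; Dicer KO left, Dicer WT right), with the number of genes in brackets. The B cell markers are low on Dicer WT 1 and Dicer WT 3 (-0.45 and -0.22). The T cell markers are also lower there (-0.072 and -0.12) than on Dicer WT 2 (-0.0016). The interferon-stimulated genes are lowest on Dicer WT 2 (-0.97), and the 10 phosphatase genes stay between -0.081 and 0.12.

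The promoter windows of the phosphatase genes were searched for the elements through which STAT and IRF factors bind, since genes of the JAK and STAT list and interferon-stimulated genes rose. The search covered 13 windows, each 300 bases around an annotated start in RefSeq's GRCm38.p6 table, for 9 of the genes. Ptpn2 was left out of the search, so the counts below say nothing about it. The STAT-type element TTCNNNGAA, which reads the same on both strands, was in 2 of the 13 windows, 1 each of Ptprj and Ptpn22, and in 8.30% of all 32851 windows. The IRF-type element, GAAA repeated after any 2 bases and searched on both strands, was in 0 of the 13 and in 3.44% of all. The windows that hold the STAT-type element are shown in lower case with the element in capitals, and the other window listed for each gene does not hold these letters. Both windows shown lie inside their gene's annotated span and not at its outermost start.
Ptprj, chr2:90479125-90479424, minus strand: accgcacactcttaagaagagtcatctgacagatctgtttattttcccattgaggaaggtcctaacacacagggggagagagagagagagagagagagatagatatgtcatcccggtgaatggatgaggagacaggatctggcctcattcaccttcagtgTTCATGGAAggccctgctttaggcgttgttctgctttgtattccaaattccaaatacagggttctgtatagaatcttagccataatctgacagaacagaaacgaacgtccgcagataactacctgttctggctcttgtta
Ptpn22, chr3:103860027-103860326, plus strand: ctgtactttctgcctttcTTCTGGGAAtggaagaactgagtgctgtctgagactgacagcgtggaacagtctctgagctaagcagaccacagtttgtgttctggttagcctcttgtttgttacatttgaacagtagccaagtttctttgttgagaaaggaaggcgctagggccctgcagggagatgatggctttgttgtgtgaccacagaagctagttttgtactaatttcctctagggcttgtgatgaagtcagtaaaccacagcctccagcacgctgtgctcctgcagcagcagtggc
A match of these letters is a description of the window and shows no binding.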

How the data were processed

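The authors deposited 1 table of log values, read here as log2, of 28815 rows by 6 arrays. MAS5 appears in the submitters' processing notes without a stated role. No source used here gives the background correction, the normalization or the log base, and base 2 is assumed in every fold. Each row was found centred on its median (largest absolute row median 5e-07), which cancels in a difference between genotypes but removes levels. Values ran from -2.59 to 3.00, and array medians from -0.0088 to 0.0063. The number of arrays limits the precision.

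Gene names came from the platform's annotation in GEO: 21780 had 1 symbol, 1605 several and 5430 none. By gene ID, 21689 took the symbol of RefSeq's GRCm38.p6 table. A gene's rows were averaged (998 of 19935 genes lay on several). Differences were tested with limma 3.58.1 in R 4.3.3 (lmFit, eBayes, 3 against 3 arrays), Benjamini-Hochberg over all genes. The procedure was tested on simulated data. The higher level class holds rows whose 6 values are all whole multiples of the binary step of numbers of 8 or more. It needs all 6 arrays and can be wrong for single rows.

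The members, the lists and the rules were chosen with earlier results of these data known. The text names, per list, at most 5 genes that passed, ranked by p, or at most 2 if none did, and partners or substrates of a phosphatase, beside Dicer1 and the 3 genes nearest to each of the 2 phosphatases with the lowest p. The miR-181 genes, the promoter elements and, from the lists, Ubash3b, Pdcd1, Ptpra, the STAT genes not called and single markers were added after values were seen. The planned filter on low levels could not be used on centred values, and the level class stood in for it. Alternatives were leaving out each array, a replicate block, 3 other normalizations, the higher class alone, single rows, all rows, array weights, a robust prior and leaving out Dicer WT 1 and Dicer WT 3. Another background correction and a slide block need scanner files and were not run.

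Same-numbered samples were compared by the correlation of their deviations from the genotype means over all genes, which was 0.27, -0.076 and 0.30 for numbers 1, 2 and 3, so the numbers were not taken as pairs.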

Additional observations from a re-analysis of the deposited data

How the results depend on the processing

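With 3 arrays per genotype, most calls near the threshold were lost in some fits that left out 1 array. Such fits also have fewer arrays, so they do not separate the weight of an array from the smaller number. Over them the difference of Ptprj ran from 0.35 to 0.52 and that of Ptpn1 from 0.28 to 0.41. Leaving out 1 array at a time gave 729 to 1597 genes past the threshold (553 to 1070 higher and 176 to 527 lower in Dicer KO), against 1741 with all arrays. Over these 6 fits the count of called phosphatases was 0 to 2 and their median difference 0.17 to 0.26. The counts of calls were 0 to 1 for the other classical phosphatases, 1 to 3 for the other classes, 1 to 3 for partners and adaptors, 1 to 2 near the T cell receptor, 2 to 4 for Janus kinases and STAT factors, 1 to 4 for the MAP kinase and Ras pathway and 7 to 16 for interferon-stimulated genes. Without Dicer WT 1 and Dicer WT 3, which leaves 1 Dicer WT array, 213 genes passed (192 higher and 21 lower), 0 of the 10 phosphatases passed and their median difference was 0.16. There the count was 1 for Janus kinases and STAT factors, 14 for interferon-stimulated genes and 0 for the other related lists. With arrays centred within level classes 1 phosphatase passed, Ptprj, and the median of the 10 was 0.19, with 3 calls among Janus kinases and STAT factors. Within the higher class alone 1004 genes passed, 173 of them lower, with fewer genes tested. The 4 phosphatases in it had a median of 0.30, and the counts were 0 for the other classical phosphatases, 3 near the T cell receptor and 7 for interferon-stimulated genes. Over all rows, named or not, 2685 passed, 1188 of them lower. Array weights gave 4 phosphatases (Ptprj, Ptpn1, Ptpn22 and Ptpn7), 4 calls near the T cell receptor and 897 lower genes, and quantile normalization 2 calls near the T cell receptor and 3 among partners.

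With the replicate number as a block, 2063 genes passed and 3 near the T cell receptor. Ptpn1 no longer passed (0.0554) and Ptpn22 did (0.0434), so 2 phosphatases passed. Eya2 was lost (0.0618) and H2bc21 gained (0.0260). The counts were 6 for partners and adaptors and 16 for interferon-stimulated genes. The numbers are not known to pair samples.

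Small differences changed sign. Over the fits that left out 1 array, Dicer1 ran from -0.069 to 0.080, Ptpn11 from -0.019 to 0.039 and Ptpn4 from -0.21 to 0.048. Dicer1 was -0.069 without Dicer KO 1, -0.036 without Dicer WT 3, -0.041 centred within classes and -0.029 with weights. Ptpn11 was -0.019 without Dicer KO 2, -0.010 without Dicer WT 1, -0.0074 without Dicer WT 3 and -0.056 without both of these Dicer WT arrays. Ptpn4 was 0.048 without Dicer KO 3. The cause was not tested. Ptprj, Ptpn1, Ptpn22, Ptpn7, Ptprc and Ptpn6 stayed positive in every fit run.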
